A study of Homo sapiens with 22 samples.

Results

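The genes described here are 10 NF-κB targets and chemokines, taken by symbol from a fixed list: CXCL1, CXCL8, IL6, CCL2, NFKBIA, TNFAIP3, RELB, ICAM1, BIRC3 and NFKB2. All 10 were found by Ensembl identifier among the 37908 genes of the count table. RNA-seq was done on H1299, an established line from a human non-small cell lung cancer. In every group the line held an shRNA that targets BRCA2 and is switched on by doxycycline (DOX). BRCA2-proficient refers to cultures without DOX and BRCA2-deficient to cultures kept in 2 µg/mL DOX during 3 days. Both kinds were transfected with a control siRNA or with 1 siRNA sequence that targets β-catenin (siβ-catenin), and received no drug or 250 nM LY2090314, a GSK3 inhibitor (GSK3i), for 24 h. Control siRNA without GSK3i is called untreated.

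Untreated and siβ-catenin BRCA2-proficient cells had 2 libraries each, numbered 2 and 3, and the other 6 groups had 3 each, 22 in all. No culture received DOX without carrying the BRCA2 shRNA, so DOX and BRCA2 depletion cannot be told apart. Totals were 18.9 to 29.3 M counts per library. RNA came from whole cultures, so fewer cells expressing a gene and less RNA per cell cannot be told apart.

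Markers of the line were abundant: KRT18, a keratin, averaged between 5909 and 10478 normalised counts (counts divided by DESeq2 size factors) over the groups, and VIM, vimentin, between 16768 and 30926. Of the markers of other cell types, 5 of 6 leukocyte genes were in the table and summed to between 45.5 and 276 normalised counts per library, nearly all from ITGAM, while PTPRC did not exceed 1.57. With control siRNA their sum ran from 45.5 to 76.7 with GSK3i and from 124 to 125 without it in BRCA2-proficient cells, and from 90.5 to 131 and 134 to 215 in BRCA2-deficient cells. With siβ-catenin the sums were 88.6 to 142 and 67.2 to 167, which overlap, and 104 to 137 and 152 to 276. All 3 fibroblast genes were in the table, LUM did not exceed 0.753, and with control siRNA their sum ran from 30.7 to 36.1 with GSK3i and from 130 to 184 without it in BRCA2-proficient cells, and from 41.1 to 49.5 and 104 to 200 in BRCA2-deficient cells. With siβ-catenin it ran from 44.6 to 132 with GSK3i and from 54.0 to 58.0 without it in BRCA2-proficient cells, with no such separation, and from 62.5 to 78.6 and 92.6 to 210 in BRCA2-deficient cells. The difference in the fibroblast sum with control siRNA lay in 1 gene, PDGFRA. Its mean there was 8.78 with GSK3i against 132 untreated when DOX was absent, and 18.2 against 136 with DOX. DCN hardly moved, at 25.1 against 24.5 and 26.9 against 28.2. After siβ-catenin the PDGFRA means were 44.6 against 28.2 when DOX was absent and 32.2 against 130 with DOX. When DOX was absent its values ran from 10.9 to 107 with GSK3i and from 15.4 to 41.0 without it. Those 2 groups each hold a library at odds with its label, as given below, and their marker sums were not repeated without it. For endothelium, 2 of 3 genes were in the table and summed to 15.8 at most. Whether any of these marker counts came from cells other than H1299 was not tested.

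The depleted genes followed their labels. BRCA2 had 513.6 to 1111 normalised counts in BRCA2-proficient libraries and 71.4 to 225 in BRCA2-deficient ones, and CTNNB1, which encodes β-catenin, had 5206 to 8669 with control siRNA and 976.8 to 2217 with siβ-catenin. Genes that GSK3i lowered did not follow the labels in BRCA2-proficient cells given siβ-catenin. PDCD4, chosen for this check with YPEL2 and ABTB1 after their values were seen, had 1551 to 1920 normalised counts in untreated libraries and 108 to 163 in GSK3i libraries. The library labelled siβ-catenin replicate 2 had 291, and replicate 3 had 1056. Replicate 2 of the group labelled GSK3i with siβ-catenin had 1998, against 105 and 109 in replicates 1 and 3. YPEL2 and ABTB1 stood the same way. AXIN2, a WNT target also set for the label check, had 59.5 to 82.4 in untreated libraries. With GSK3i and control siRNA AXIN2 had 1027 to 1747. In BRCA2-proficient cells with siβ-catenin it had 67.2 and 65.0 without GSK3i, in replicates 2 and 3. With GSK3i it had 145, 73.1 and 117 in replicates 1 to 3. By AXIN2, siβ-catenin replicate 2 did not stand apart from replicate 3. Member comparisons that rest on these libraries, and most lists, are given with and without replicate 2. Where that leaves 1 siβ-catenin library, effect sizes alone are given.

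**Figure D1:**
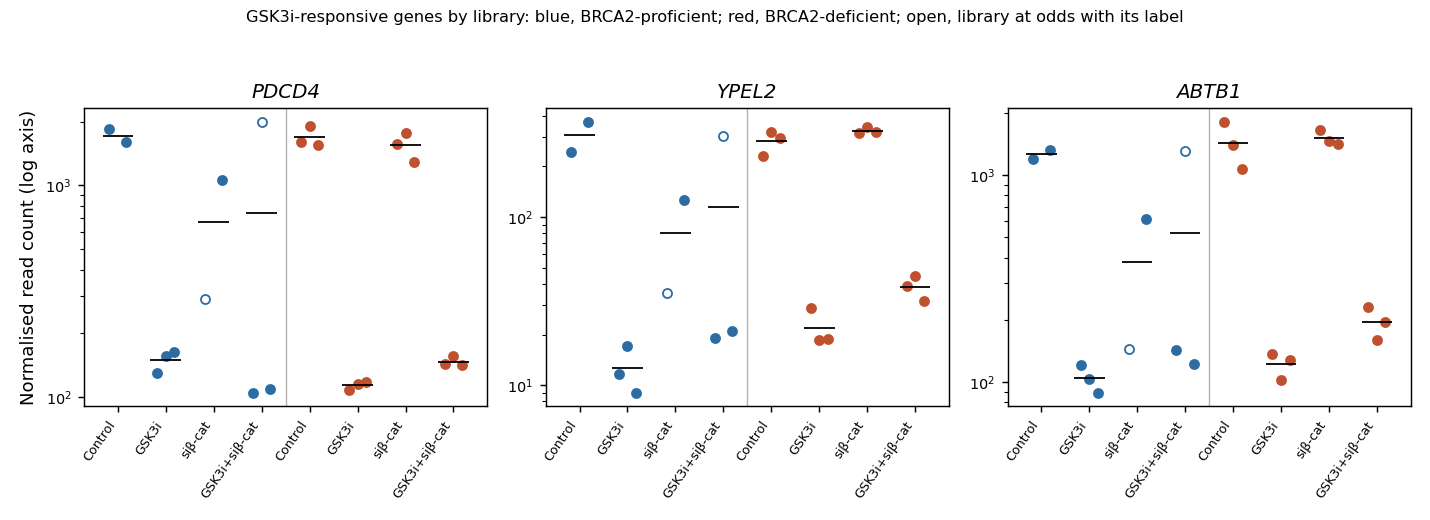
Normalised read counts (log axis) of PDCD4, YPEL2 and ABTB1 in each library by group (Control is untreated), with group means as lines. The open symbols are the library labelled siβ-catenin replicate 2 (PDCD4 291) and replicate 2 of the group labelled GSK3i with siβ-catenin (PDCD4 1998), both BRCA2-proficient, which lay on the side opposite to their labels.

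NF-κB is a family of dimeric transcription factors built from Rel-domain subunits. In resting cells inhibitory IκB proteins hold the dimers in the cytoplasm, and signals from receptors for tumour necrosis factor, interleukins or microbial products activate the IκB kinases, which mark IκB for degradation. A second, slower branch runs through the kinase encoded by MAP3K14 and yields dimers of RELB with the processed product of NFKB2. Many targets restrain or extend the pathway itself: NFKBIA encodes the inhibitor IκBα, TNFAIP3 a ubiquitin-editing enzyme that shuts off signalling to the IκB kinases, and BIRC3 a ubiquitin ligase of the inhibitor-of-apoptosis family. CXCL1 and CXCL8 encode neutrophil chemokines, CCL2 a monocyte chemokine, IL6 a cytokine and ICAM1 an adhesion molecule for leukocytes.

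The promoters of these genes are shown because they carry the sequence that NF-κB is known to bind. RefSeq promoter windows (GRCh38.p14, 250 bases before to 50 after a gene start) were found for 8 of the 10 genes, with 3 windows for NFKB2, and none was used for CCL2 and RELB. The windows were searched on both strands for the κB consensus of 10 bases and for the overlapping shorter motif GGANNTTCC. The consensus was held by 6 of the 8 genes and by 5.91% of all 35116 windows, and the shorter motif by 7 of the 8 and by 4.56%. A match is a run of letters and not a measured site. Each stretch below runs 5′ to 3′ on the gene's strand and ends before the gene start, with the matches in capitals. Where matches lay far apart, the stretch holds the one nearest the start. The stretches lie at chr4:73869299-73869339 (plus strand) for CXCL1, chr4:73740463-73740501 (plus) for CXCL8, chr7:22727112-22727151 (plus) for IL6, chr14:35404806-35404845 (minus) for NFKBIA and chr6:137867177-137867228 (plus) for TNFAIP3. Those of ICAM1, BIRC3 and NFKB2 (its windows 2 and 3) lie at chr19:10270919-10270957, chr11:102317270-102317373, chr10:102394456-102394524 and chr10:102395669-102395704, all on the plus strand.
CXCL1: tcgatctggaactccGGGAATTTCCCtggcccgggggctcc
CXCL8: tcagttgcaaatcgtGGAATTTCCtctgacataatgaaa
IL6: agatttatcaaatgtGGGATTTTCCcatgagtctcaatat
NFKBIA: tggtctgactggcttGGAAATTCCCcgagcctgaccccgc
TNFAIP3: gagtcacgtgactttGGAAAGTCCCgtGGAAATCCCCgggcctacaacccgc
ICAM1: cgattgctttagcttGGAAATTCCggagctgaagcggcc
BIRC3: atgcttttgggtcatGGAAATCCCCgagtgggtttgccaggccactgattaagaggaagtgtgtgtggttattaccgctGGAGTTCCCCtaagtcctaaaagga
NFKB2, window 2: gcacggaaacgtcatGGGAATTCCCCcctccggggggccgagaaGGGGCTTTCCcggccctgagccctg
NFKB2, window 3: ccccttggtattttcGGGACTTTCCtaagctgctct
A window with a match did not mean a measurable transcript: IL6 holds both motifs and, as given next, was not readable.

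Of the 10 genes, 2 were too low to read, meaning a mean below 10 normalised counts in each of the 8 groups. IL6 (ENSG00000136244, chromosome 7, 22765503 to 22771621 on GRCh37) had 2 counts in all, with 20 libraries at 0. CCL2 (ENSG00000108691, chromosome 17, 32582293 to 32584227) had 4 counts in all, with 19 libraries at 0. A count of 0 allows up to 3 counts in a library, by counting error alone, so these genes were not detectable at this depth. IL6 also overlaps a gene on the other strand, and the strand setting of the counting is not given in the sources used here.

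The other 8 genes fell into an abundant and a scarce set. On a scale corrected for length (TPM, a length-corrected share of transcripts, computed here with exonic lengths from GENCODE), RELB averaged 190.7 ± 49.97 (SD, n = 22 libraries), NFKB2 118.9 ± 37.3, NFKBIA 65.0 ± 26.4, BIRC3 43.9 ± 26.1 and TNFAIP3 11.8 ± 4.89. CXCL1 had 4.55 ± 1.95, ICAM1 1.31 ± 0.847 and CXCL8 1.203 ± 0.806. The ranges of neighbours in this order overlapped at each step, and ICAM1 and CXCL8 did not differ beyond their spread. In counts, CXCL1, ICAM1 and CXCL8 averaged 33.4, 24.3 and 17.3 per library. The subunits RELB and NFKB2 averaged 3117 and 3592 counts, IκBα 1194 and BIRC3 1763.

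NFKBIA (ENSG00000100906, chromosome 14, 35870285 to 35873955, minus strand) had 944 and 1059 normalised counts in untreated BRCA2-proficient cells and 917, 749 and 724 with GSK3i. With siβ-catenin it had 714 in the library labelled replicate 2 and 900 in replicate 3, and with GSK3i and siβ-catenin 1059, 1016 (replicate 2) and 974. In BRCA2-deficient cells it had 1499, 1516 and 1830 untreated, 1146, 916 and 852 with GSK3i, 1682, 1428 and 2545 with siβ-catenin, and 1586, 1156 and 1057 with both. The 6 BRCA2-deficient libraries without GSK3i, from 1428 to 2545, were among the 7 highest of the 22, with 1 BRCA2-deficient library given both treatments (1586) between them.

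TNFAIP3 (ENSG00000118503, chromosome 6, 138188351 to 138204451) varied widely between replicates. It had 222 and 473 normalised counts untreated, 260, 261 and 347 with GSK3i, 259 and 385 with siβ-catenin, and 390, 243 and 377 with both in BRCA2-proficient cells. The BRCA2-deficient libraries had 330, 346 and 638 untreated, 288, 378 and 510 with GSK3i, 462, 415 and 878 with siβ-catenin, and 502, 485 and 578 with both. It overlaps the long non-coding RNA gene WAKMAR2 on the other strand and is read as uncertain.

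RELB (ENSG00000104856, chromosome 19, 45504719 to 45541450) had 2200 and 2590 untreated, 2671, 2657 and 2485 with GSK3i, 2584 and 2437 with siβ-catenin, and 2685, 2921 and 3143 with both in BRCA2-proficient cells. The BRCA2-deficient libraries had 2732, 2986 and 2829 untreated, 3804, 3212 and 3330 with GSK3i, 3749, 2999 and 5689 with siβ-catenin, and 4071, 3291 and 3503 with both. Each BRCA2-deficient group mean was above its BRCA2-proficient counterpart. The 5689 of siβ-catenin replicate 3 stood far above the others, and the same library was also the highest of all 22 for NFKBIA, TNFAIP3, NFKB2, CXCL1 and ICAM1.

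NFKB2 (ENSG00000077150, chromosome 10, 104153867 to 104162281) had 3773 and 4939 untreated, 2583, 2356 and 2551 with GSK3i, 2946 and 3535 with siβ-catenin, and 2799, 4583 and 3070 with both in BRCA2-proficient cells. The 4583 belonged to replicate 2 of the group labelled GSK3i with siβ-catenin. In BRCA2-deficient cells NFKB2 had 4075, 3680 and 4411 untreated, 3179, 2609 and 3182 with GSK3i, 4708, 3546 and 6447 with siβ-catenin, and 3490, 3108 and 3446 with both. In both backgrounds the GSK3i libraries lay below the untreated ones with no overlap.

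BIRC3 (ENSG00000023445, chromosome 11, 102188215 to 102210134) had the largest SD relative to its mean TPM among the 5 abundant members. It had 1844 and 2488 untreated, 1272, 1093 and 1897 with GSK3i, 889 (the library labelled replicate 2) and 2741 with siβ-catenin, and 1209, 1393 and 1557 with both in BRCA2-proficient cells. The BRCA2-deficient libraries had 1247, 1843 and 5051 untreated, 1193, 1493 and 1944 with GSK3i, 1866, 1687 and 3294 with siβ-catenin, and 919, 827 and 1035 with both. The 5051 of untreated replicate 3 was the highest of the 22, and the 3 libraries with both treatments were, with the library labelled siβ-catenin replicate 2, the 4 lowest.

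Among the scarce genes, CXCL1 (ENSG00000163739, chromosome 4, 74735110 to 74737025) had 32.5 and 43.8 normalised counts untreated and 25.6, 19.3 and 19.2 with GSK3i in BRCA2-proficient cells, and 32.1, 40.1 and 53.2 against 17.2, 22.1 and 20.6 in BRCA2-deficient cells. After siβ-catenin it had 34.2 and 28.0 without and 42.3, 25.98 and 33.7 with GSK3i in BRCA2-proficient cells, and 26.9, 40.5 and 73.0 against 45.0, 28.2 and 31.6 in BRCA2-deficient cells. The GSK3i groups with control siRNA were the lowest in both backgrounds. CXCL1 has close relatives in sequence, among them CXCL2, whose shared reads are lost under unique mapping, and its level is read as uncertain.

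CXCL8 (ENSG00000169429, chromosome 4, 74606236 to 74609433) had 9.29 and 15.2 untreated, 12.8, 10.2 and 28.2 with GSK3i, 4.41 and 0 with siβ-catenin, and 12.1, 1.93 and 8.19 with both in BRCA2-proficient cells. The BRCA2-deficient libraries had 21.4, 20.6 and 13.3 untreated, 42.4, 33.6 and 44.7 with GSK3i, 15.1, 11.8 and 10.98 with siβ-catenin, and 24.0, 29.2 and 11.3 with both. The 3 BRCA2-deficient libraries with GSK3i and control siRNA were the 3 highest of the 22, opposite to CXCL1.

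ICAM1 (ENSG00000090339, chromosome 19, 10381769 to 10397291) had 12.8 and 32.4 untreated, 4.66, 3.41 and 1.13 with GSK3i, 25.4 and 17.99 with siβ-catenin, and 14.1, 25.0 and 10.0 with both in BRCA2-proficient cells. The BRCA2-deficient libraries had 33.3, 30.3 and 33.8 untreated, 14.9, 12.4 and 15.2 with GSK3i, 53.8, 38.8 and 54.1 with siβ-catenin, and 38.0, 37.3 and 24.9 with both. The 3 BRCA2-proficient GSK3i libraries were the lowest of the 22. ICAM1 overlaps antisense long non-coding RNA genes and is read as uncertain.

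**Figure D2:**
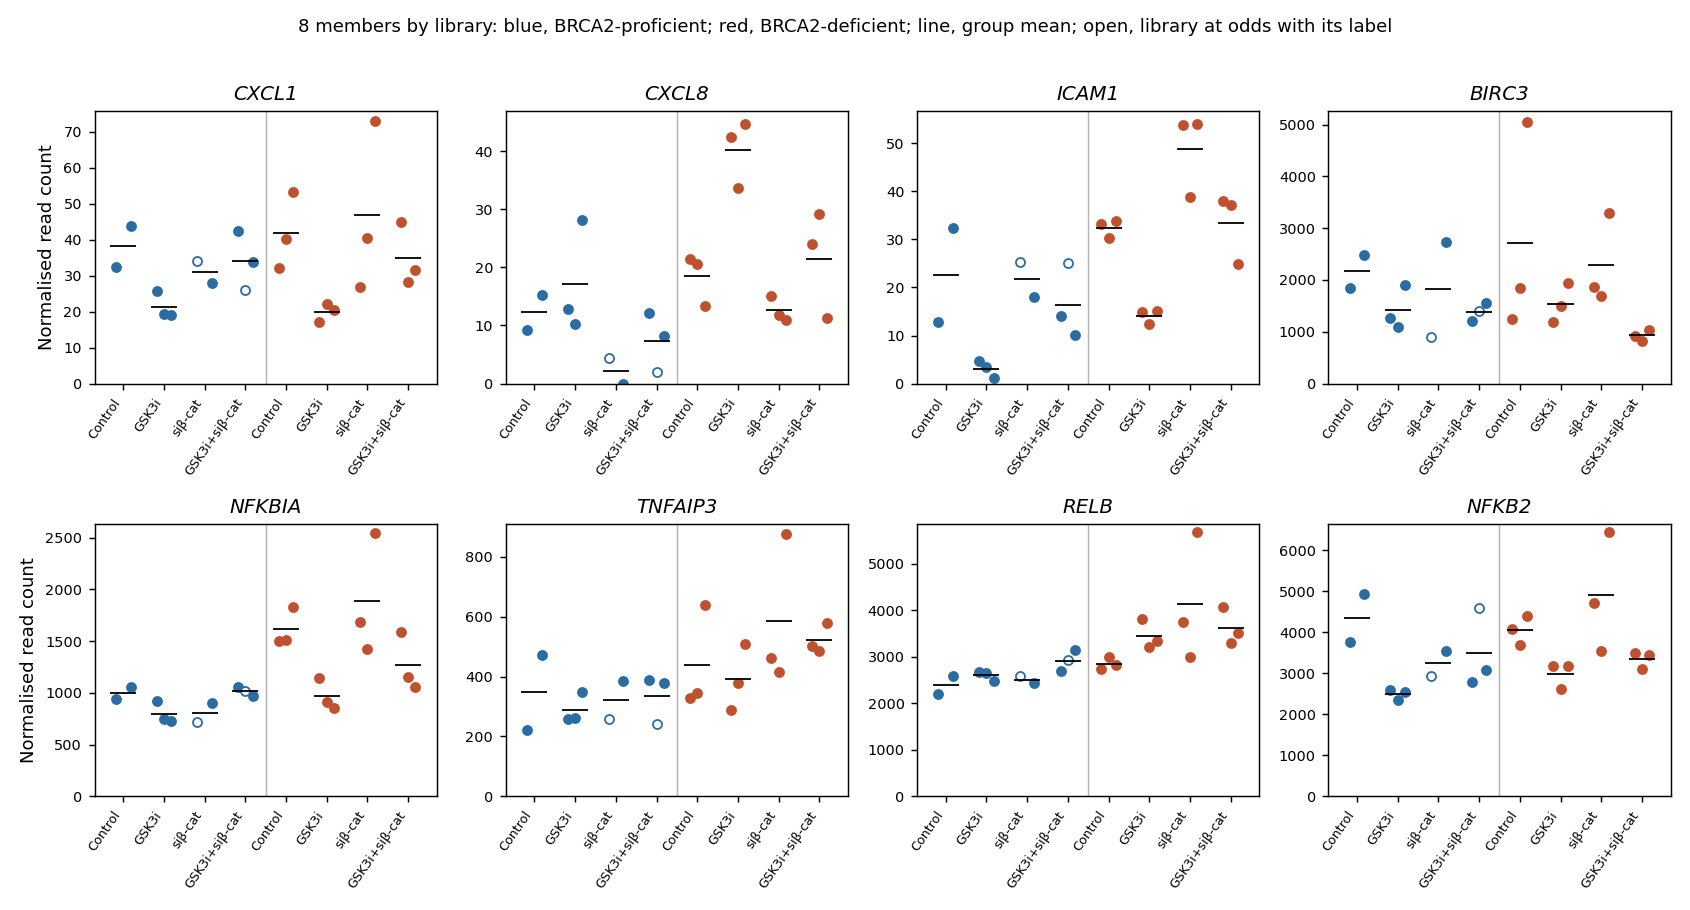
Normalised read counts (linear axes from 0) of the 8 readable genes in each library, by group, with group means as lines; open symbols are the libraries at odds with their labels. NFKB2 lay at 2356 to 2583 with GSK3i against 3773 and 4939 untreated in BRCA2-proficient cells, and CXCL8 at 33.6 to 44.7 with GSK3i against 13.3 to 21.4 in BRCA2-deficient cells.

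GSK3i was compared with no drug to ask how these genes stood when GSK3 was inhibited and β-catenin accumulated. NFKB2 fell in BRCA2-proficient cells and NFKBIA fell in BRCA2-deficient cells. The NFKB2 call held with each GSK3i library left out in turn, and the NFKBIA call with each library left out. Differences are log2 fold changes ± SE from DESeq2 with its Benjamini-Hochberg adjusted p, and a gene is called when that p is below 0.05 and the change beyond 0.5 in size. Shares of all genes called are from DESeq2 by this rule, and no such share is given for an unadjusted p or for edgeR. How many of all genes had no overlap between groups is not given either, so no overlap is a description. In BRCA2-proficient cells (3 libraries against 2), 3 of the 8 genes tested were called, all lower, or 37.5%. The 3 include ICAM1, which passed the filter on low counts through its untreated libraries and had to be lower. The share is therefore a description. Over all 16771 genes tested 26.1% were called and 14.3% were called lower. The median over the 8 was -0.49, beside -0.00 over all genes.

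NFKB2 changed by -0.82 ± 0.15 (adjusted p = 4.21e-07) in BRCA2-proficient cells. BIRC3 changed by -0.63 ± 0.21 (adjusted p = 0.0123) with overlapping groups. This call was lost without GSK3i replicate 1 (adjusted p = 0.367) or 2 (0.123). Without untreated replicate 3, which leaves 1 untreated library, the change was -0.39. ICAM1 changed by -2.91 ± 0.91 (adjusted p = 0.00605, 95% interval -4.69 to -1.13), from a group with 1 to 5 normalised counts per library. It passed the filter on low counts through its untreated libraries and had to be lower, so its values are a description. DESeq2 gave ICAM1 no adjusted p, and so no call, without GSK3i replicate 2 or either untreated library. edgeR also called CXCL1 (-0.86, adjusted p = 0.0439). In DESeq2 NFKBIA changed by -0.35 ± 0.16 (adjusted p = 0.0814) and CXCL1 by -0.86 ± 0.49 (adjusted p = 0.169). CXCL8, TNFAIP3 and RELB had adjusted p of 0.454 to 0.668.

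With DOX (3 libraries against 3), 4 of 8 genes were called, or 50%, with 3 lower and 1 higher. Over all 16863 genes 25.4% were called, 13.8% lower and 11.6% higher. The median over the 8 was -0.59, beside 0.02 over all genes. NFKBIA changed by -0.74 ± 0.18 (adjusted p = 0.000553). ICAM1 changed by -1.20 ± 0.44 (adjusted p = 0.025), CXCL1 by -1.07 ± 0.41 (adjusted p = 0.0348) and CXCL8 by 1.13 ± 0.42 (adjusted p = 0.028), each with no overlap between groups.

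With a replicate block, which the pairing of these libraries calls for, 2 of the 4 calls stayed: ICAM1 had an adjusted p of 0.0506 and CXCL1 of 0.0518, while NFKBIA and CXCL8 were called. Without any one of the 6 libraries ICAM1 (adjusted p 0.0523 to 0.149) and CXCL8 (0.0591 to 0.152) were not called, and CXCL1 was not called without any of GSK3i replicates 1 to 3 or untreated replicates 2 and 3 (0.102 to 0.225). CXCL8 also had an adjusted p of 0.0585 in 1 model over all groups. The direction stayed the same in each of these fits. NFKB2 changed by -0.44 ± 0.16 (adjusted p = 0.0254), short of the fold threshold. BIRC3 changed by -0.82 ± 0.63 (adjusted p = 0.352), with untreated libraries from 1247 to 5051, and was called without untreated replicate 1 (-1.17, 0.0122).

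The difference between backgrounds in the response to GSK3i was tested as an interaction, and DESeq2 called 0 of 8 members, 1 (ICAM1) had an unadjusted p below 0.05, and edgeR called 0. Over all 17381 genes 0.0345% were called. The interaction of NFKBIA was -0.41 (95% interval -0.87 to 0.06), of NFKB2 0.36 (-0.05 to 0.78), of CXCL8 0.66 (-0.71 to 2.04) and of ICAM1 1.70 (0.06 to 3.34), so the 2 backgrounds were not shown to respond differently.

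**Figure D3:**
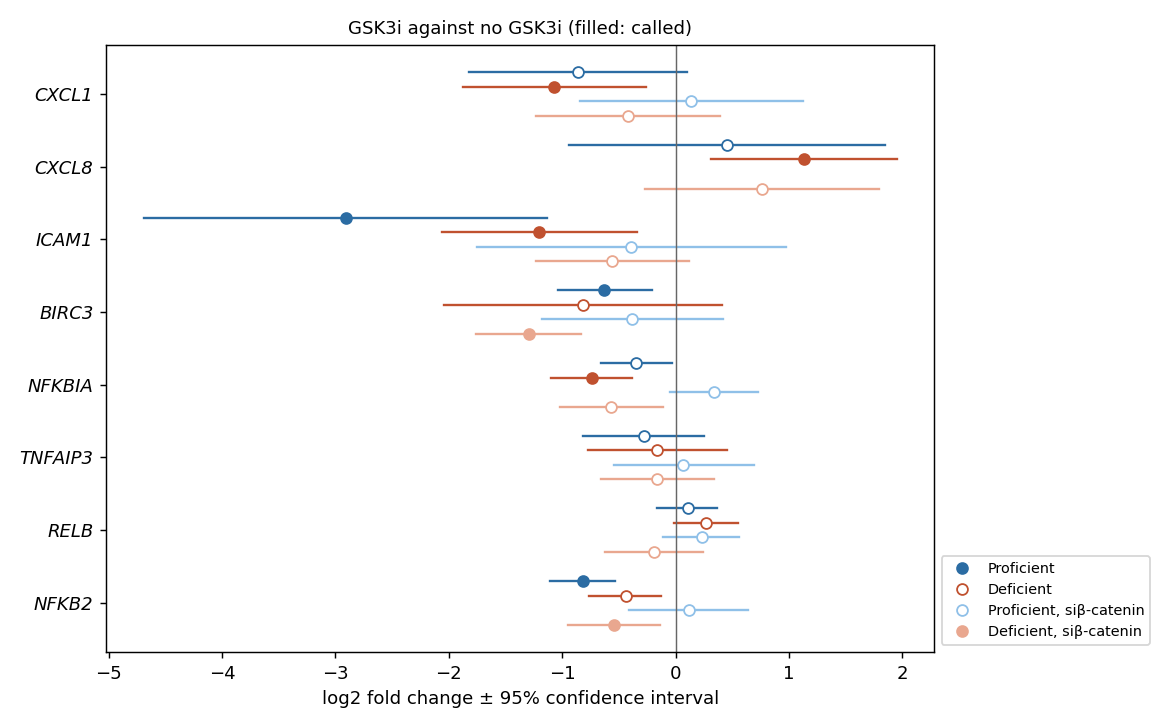
Log2 fold change with GSK3i (x axis, with 95% confidence intervals) for the 8 readable genes in 4 comparisons, with filled symbols for calls. NFKB2 (-0.82 in BRCA2-proficient), NFKBIA (-0.74 in BRCA2-deficient) and BIRC3 (-1.29 in BRCA2-deficient after siβ-catenin) are to the left of 0, and CXCL8 (1.13 in BRCA2-deficient) is to the right.

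After siβ-catenin, GSK3i was compared with no drug to ask which differences appear when β-catenin is depleted. In BRCA2-deficient cells BIRC3 fell by 1.29 ± 0.24 on the log2 scale (adjusted p = 1.41e-06), with no overlap between groups, and was called without each single library. NFKB2 changed by -0.54 ± 0.20 (adjusted p = 0.0362). These were 2 of 8 genes called, or 25%, both lower, while 20.1% of all 17610 genes were called and 11.5% were called lower. The NFKB2 call was lost in edgeR (adjusted p = 0.0694) and without GSK3i with siβ-catenin replicates 2 (0.129) or 3 (0.0713), siβ-catenin replicate 1 (0.0899), or siβ-catenin replicate 3 (-0.30, 0.243). NFKBIA changed by -0.57 ± 0.23 (adjusted p = 0.0571) and was called without GSK3i with siβ-catenin replicate 1 (-0.77, 0.00661) or siβ-catenin replicate 2 (-0.73, 0.022). CXCL1, CXCL8 and ICAM1, called with control siRNA, had -0.42 ± 0.41, 0.76 ± 0.52 and -0.56 ± 0.35 here, with adjusted p of 0.246 to 0.502.

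In BRCA2-proficient cells after siβ-catenin, DESeq2 called 0 of the 7 genes tested, with 0 below an unadjusted p of 0.05 and 0 in edgeR, and 0.0529% of all 17010 genes. This comparison rests on both libraries at odds with their labels. Without both, in a fit chosen after seeing the data, BIRC3 changed by -0.99, NFKB2 by -0.27 and NFKBIA by 0.17. That fit leaves 1 siβ-catenin library, replicate 3, and assumes that it varies like the others, so effect sizes alone are given. Replicate 3 was itself out of line. Its PDCD4 was 1056, against 1551 to 1920 in untreated libraries and 1291 to 1771 in BRCA2-deficient libraries with siβ-catenin alone.

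Whether siβ-catenin altered the GSK3i response was tested as an interaction in each background. In BRCA2-deficient cells DESeq2 called 0 of 8 members, 0 had an unadjusted p below 0.05 and edgeR called 0, beside 0.486% of 18117 genes. The interaction of NFKBIA there was 0.15 (95% interval -0.50 to 0.80) and that of BIRC3 -0.49 (-1.94 to 0.96). In BRCA2-proficient cells NFKB2 alone was called, with 0.93 ± 0.32 (adjusted p = 0.0411), or 12.5% of the members beside 7.63% of all genes. Without both libraries at odds with their labels NFKB2 had 0.55 ± 0.22 (adjusted p = 0.153) and 3.52% of genes were called. The NFKB2 call was also absent without GSK3i replicate 1 (0.0632), 2 (0.12) or 3 (0.0849), the library labelled siβ-catenin replicate 2 (0.255), or untreated replicate 2 (0.0683) or 3 (0.281). Without siβ-catenin replicate 3, NFKBIA (0.87, adjusted p = 0.0149) and BIRC3 (1.28, 0.0135) were called, and NFKBIA was also called without GSK3i replicate 1 (0.80, 0.0288).

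siβ-catenin was compared with control siRNA, first under GSK3i. BIRC3 was lower with siβ-catenin under GSK3i in BRCA2-deficient cells, at 919, 827 and 1035 against 1193, 1493 and 1944 normalised counts, a change of -0.74 ± 0.22 (adjusted p = 0.0155). It was 1 of 8 genes called, or 12.5%, beside 5.52% of all 17025 genes and 2.57% called lower. The call was lost in edgeR (adjusted p = 0.103), with 1 model for all groups (0.438), and without the GSK3i replicate 2 (0.108) or 3 (0.143) or GSK3i with siβ-catenin replicate 1 (0.0513) or 2 (0.151). ICAM1 had 1.23 ± 0.44 (adjusted p = 0.0669), CXCL8 -0.93 ± 0.44 (0.235) and CXCL1 0.79 ± 0.41 (0.285). Their signs were opposite to those of their differences with GSK3i, with which they share the GSK3i libraries.

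In BRCA2-proficient cells under GSK3i, DESeq2 called 0 of 8 members for siβ-catenin, beside 5.1% of all genes. An unadjusted p below 0.05 was found for 3 (NFKBIA, ICAM1 and NFKB2), and edgeR called 0. NFKB2 had 0.51 ± 0.20 (adjusted p = 0.121) and NFKBIA 0.38 ± 0.15 (0.131). ICAM1 had raw counts of 4, 3 and 1 with control siRNA and 14, 26 and 11 with siβ-catenin. It passed the filter through the siβ-catenin libraries and had to differ. Without replicate 2 of the group labelled GSK3i with siβ-catenin, 4.72% of genes were called and no member, and NFKB2 had 0.25 ± 0.12 (adjusted p = 0.238). The interaction of BRCA2 depletion with siβ-catenin under GSK3i called 0 of 8 members in DESeq2, beside 0.0057% of genes, and also 0 without that library. An unadjusted p below 0.05 was found for 1 (BIRC3), and edgeR called 0. The interaction of BIRC3 was -0.71 (95% interval -1.36 to -0.07).

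Without GSK3i, DESeq2 called 0 of 8 members for siβ-catenin in BRCA2-proficient cells, beside 2.85% of all genes. An unadjusted p below 0.05 was found for 1 (NFKB2), and edgeR called 0. Leaving out a siβ-catenin library leaves 1, so effect sizes alone are given. Without the library labelled replicate 2 they were 0.34 for BIRC3 and -0.30 for NFKB2. Without replicate 3, which leaves the library at odds with its label, they were -1.30 and -0.58. In BRCA2-deficient cells 0 of 8 were called, beside 2.03% of genes. An unadjusted p below 0.05 was found for 1 (RELB), and edgeR called 0. RELB had 0.55 ± 0.22 (adjusted p = 0.201), and without siβ-catenin replicate 2 it was called (0.73, 0.0495). CXCL8 had 4.41 and 0 counts with siβ-catenin against 9.29 and 15.2 in BRCA2-proficient cells, with no adjusted p from DESeq2.

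BRCA2-deficient cells were compared with BRCA2-proficient cells under each treatment to ask which of these genes differ with BRCA2 depletion and DOX. NFKBIA, the inhibitor of NF-κB, was higher in untreated BRCA2-deficient cells, at 1499 to 1830 against 944 and 1059 normalised counts, a change of 0.67 ± 0.19 (adjusted p = 0.00796). It was 1 of 8 genes called, or 12.5%, beside 6.92% of 17157 genes and 2.77% called higher. The call was lost in edgeR (adjusted p = 0.0755) and without BRCA2-deficient replicate 2 (0.0846). Without BRCA2-proficient replicate 2 or 3, which leaves 1 library there, the change was 0.58 or 0.75. RELB had 0.23 ± 0.16 (adjusted p = 0.455). BIRC3 had 0.31 ± 0.80 (adjusted p = 0.876), with the widest interval, -1.26 to 1.88.

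Under GSK3i, DESeq2 called 0 of 8 members, beside 6.81% of all genes. An unadjusted p below 0.05 was found for 3 (CXCL8, RELB and ICAM1), and edgeR called 1 (ICAM1, 2.17, adjusted p = 0.0411). RELB changed by 0.40 ± 0.12 (adjusted p = 0.0168), short of the fold threshold. CXCL8 had 1.23 ± 0.47 (adjusted p = 0.0841) and was called without BRCA2-proficient replicate 3 (1.80, 0.0254), and TNFAIP3 was called without BRCA2-deficient replicate 1 (0.63, 0.0277). ICAM1 had 2.21 ± 0.80 with no adjusted p from DESeq2. Its raw counts were 4, 3 and 1 in BRCA2-proficient and 13, 14 and 17 in BRCA2-deficient libraries. ICAM1 thus passed the filter on low counts through the BRCA2-deficient libraries and had to differ, so its values are a description.

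With GSK3i and siβ-catenin together BIRC3 was lower in BRCA2-deficient cells, at 827 to 1035 against 1209 to 1557, a change of -0.59 ± 0.18 (adjusted p = 0.0202). That was 1 of 8 members, or 12.5%, beside 7.74% of all genes and 4.36% called lower. Without replicate 2 of the group labelled GSK3i with siβ-catenin, 9.21% of genes were called and BIRC3 had -0.59 ± 0.19 (adjusted p = 0.0206). The call was lost in edgeR (adjusted p = 0.079), in 1 model over all groups (0.501), and without BRCA2-deficient replicate 2 (0.16) or BRCA2-proficient replicate 3 (0.19). With the replicate block TNFAIP3 was called too, at 0.65 (adjusted p = 0.0256), from 0.63 ± 0.23 (0.0606) without it.

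With siβ-catenin alone 4 of 8 genes, or 50%, were called, all higher: NFKBIA (1.20 ± 0.27, adjusted p = 7.84e-05), TNFAIP3 (0.84 ± 0.34, 0.0441), RELB (0.70 ± 0.26, 0.0294) and ICAM1 (1.16 ± 0.44, 0.0314). Over all 17813 genes 27.4% were called and 13.6% were called higher. Without the library labelled siβ-catenin replicate 2 of BRCA2-proficient cells, 1 library is left in that group, so effect sizes alone are given. They were 1.03 for NFKBIA, 0.57 for TNFAIP3, 0.73 for RELB and 1.41 for ICAM1. Without BRCA2-deficient replicate 3, the library highest for 6 members, TNFAIP3 had 0.42 (adjusted p = 0.276), RELB 0.40 (0.142) and ICAM1 1.07 (0.186). NFKBIA was called without each single BRCA2-deficient library. edgeR did not call TNFAIP3 (0.0868) or RELB (0.0522) and called CXCL8 (2.51, 0.0379). In DESeq2 CXCL8 had 2.54 ± 1.07 with no adjusted p, from 4.41 and 0 against 10.98 to 15.1 normalised counts, and it was called in 1 model over all groups (2.58, 0.0155). In the fits of this comparison alone, CXCL8 passed the filter through its BRCA2-deficient libraries and had to differ. ICAM1 was also not called without BRCA2-deficient replicate 1 (adjusted p = 0.215) or 2 (0.08). NFKB2, at 0.58 ± 0.26 (0.0713), was called without BRCA2-deficient replicate 2 (0.76, 0.00826). Without BRCA2-proficient replicate 3, which leaves the library at odds with its label, changes were 0.65 for RELB, 0.92 for ICAM1 and 0.70 for NFKB2.

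**Figure D4:**
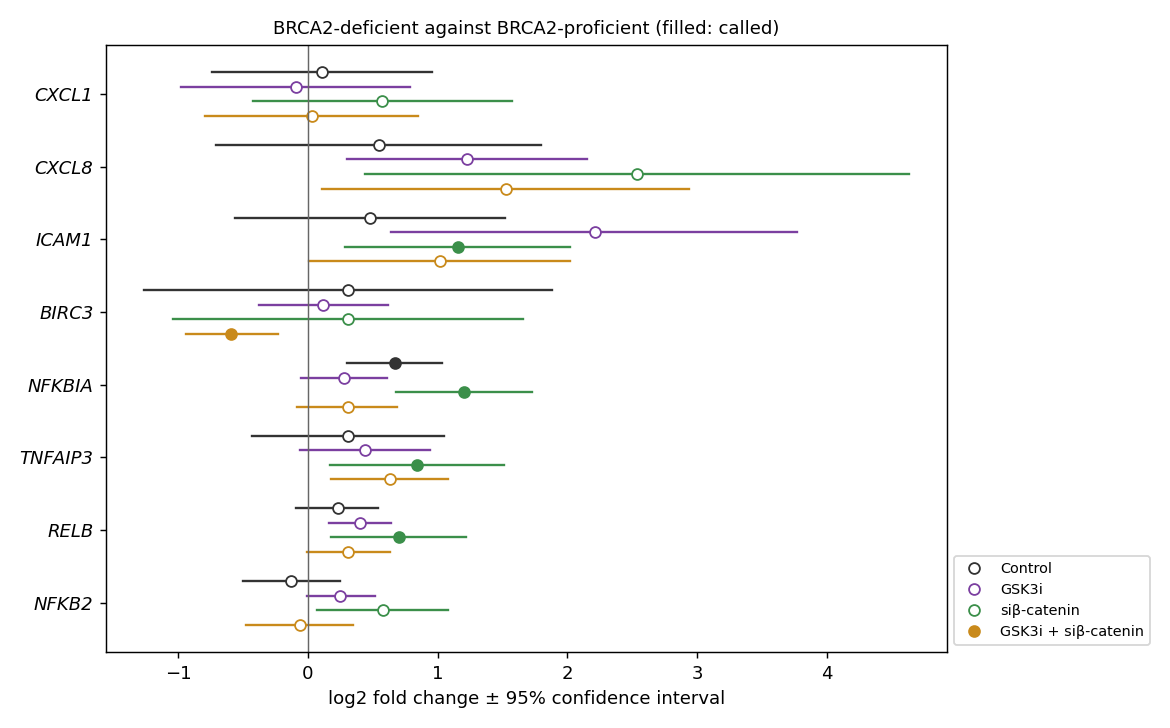
Log2 fold change of BRCA2-deficient against BRCA2-proficient cells (x axis, with 95% confidence intervals) under each of the 4 treatments for the 8 readable genes, with filled symbols for calls. NFKBIA is right of 0 untreated (0.67) and with siβ-catenin (1.20), a group that holds a library at odds with its label, and BIRC3 is left of 0 with GSK3i and siβ-catenin (-0.59).

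Other genes of the pathway were read in 3 lists: 36 subunits and regulators, of which 34 were found in the table, 20 ligands and receptors, all found, and 34 other targets, of which 31 were found. With GSK3i 7 of 34 subunits and regulators were lower and 4 higher in BRCA2-proficient cells, and 7 lower and 3 higher in BRCA2-deficient cells. Their median was -0.11 and 0.05, beside -0.00 and 0.02 over all genes. Of all genes tested in these 2 comparisons, 26.1% and 25.4% were called, 14.3% and 13.8% lower. TRAF1, an adaptor of tumour necrosis factor receptors, fell by 1.20 ± 0.16 (adjusted p = 4.19e-12) on the log2 scale without DOX and by 1.42 ± 0.27 (2.7e-06) with DOX. NFKBIB, which encodes the inhibitor IκBβ, moved the other way, by 1.02 ± 0.15 (1.17e-09) and 1.16 ± 0.15 (5.98e-13). TRADD, an adaptor of the same receptors, changed by -0.90 ± 0.23 (0.00071) and -0.93 ± 0.23 (0.000424). BCL3, an atypical IκB protein, changed by -1.06 ± 0.16 (3.07e-09) in BRCA2-proficient cells and had -0.34 ± 0.16 (0.102) in BRCA2-deficient cells, and the difference was not called.

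Of the ligands and receptors, 4 of 11 tested were lower with GSK3i and none higher in BRCA2-proficient cells, and 9 of 12 were lower and none higher in BRCA2-deficient cells, with medians of -0.82 and -1.12. Of those lower, 1 (LTBR) and 3 (LTB, TNFSF11 and LTBR) had a mean below 10 normalised counts with GSK3i, so they passed the filter through their untreated libraries and had to differ, and the counts and medians are a description. The shares of all genes called lower were 14.3% and 13.8%. TNFRSF1B, a receptor for tumour necrosis factor, changed by -1.74 ± 0.24 (adjusted p = 2.08e-11) in BRCA2-deficient cells, and TLR3, a receptor for double-stranded RNA, by -1.69 ± 0.27 (1.92e-08). TNFRSF11A, the receptor of the osteoclast factor RANKL, changed by -0.76 ± 0.21 (0.00154) without DOX and -0.86 ± 0.21 (0.000442) with DOX. TNF itself, IL1A and IL1B were close to 0, with group means up to 1.48, 1.12 and 1.89 normalised counts.

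Of the other targets, 6 of 18 tested were lower with GSK3i in BRCA2-proficient cells and 7 of 18 in BRCA2-deficient cells, and none was higher, with medians of -0.29 and -0.36. Of the 6, 1 (TNFAIP2) likewise had a mean below 10 with GSK3i. The shares of all genes called lower were again 14.3% and 13.8%. CXCL2, a chemokine close to CXCL1, averaged 453.7 TPM in untreated BRCA2-proficient cells, where CXCL1 averaged 5.37 TPM. Its normalised counts were 3314 ± 339 (n = 2) untreated and 1445 ± 165 (n = 3) with GSK3i in BRCA2-proficient cells, a change of -1.21 ± 0.15 (adjusted p = 2.1e-14). In BRCA2-deficient cells it changed by -1.35 ± 0.21 (1.12e-08). PLAU, which encodes urokinase, changed by -1.35 ± 0.13 (5.33e-22) and -1.92 ± 0.18 (6.41e-24), and GADD45B, a stress-response gene, by -1.45 ± 0.21 (2.73e-10) and -1.21 ± 0.17 (1.13e-10). Over the 3 lists 63 genes were tested in both backgrounds, of which 16 (25.4%) were lower and 3 (4.76%) higher in both. Of all 16361 genes tested in both, 10.3% were lower and 8.31% higher in both. The 16 include LTBR, with a mean below 10 with GSK3i in both backgrounds, and TNFAIP2, with such a mean in BRCA2-proficient cells. The lists were also chosen with earlier results of these data known, so these shares are a description.

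**Figure D5:**
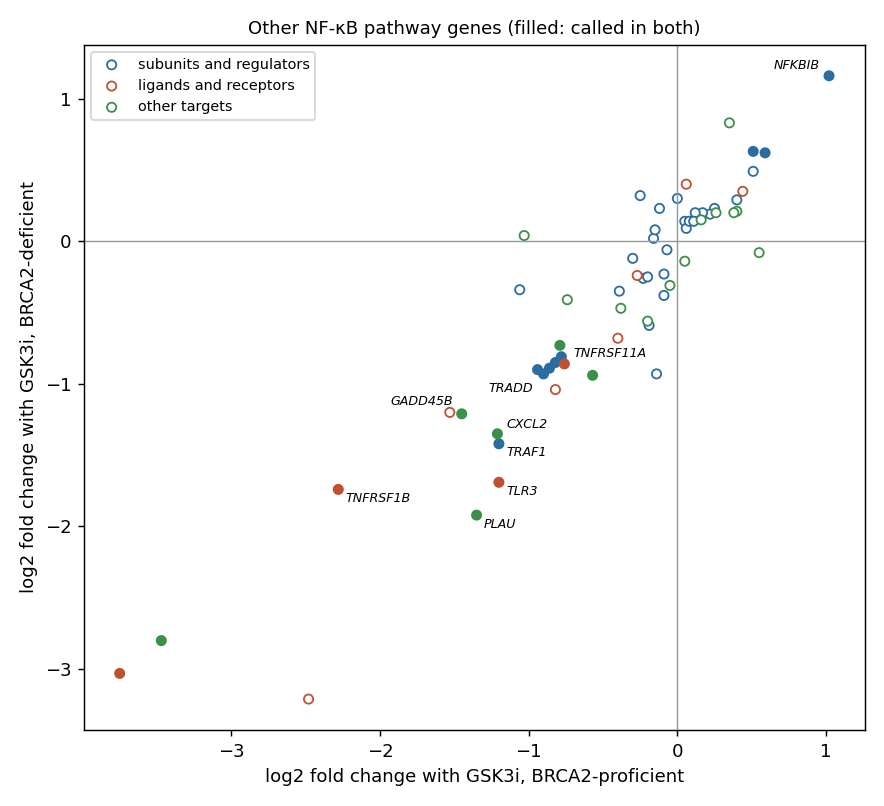
Log2 fold change with GSK3i in BRCA2-proficient (x axis) and BRCA2-deficient cells (y axis) for the 63 genes of the 3 pathway lists tested in both, with filled symbols for genes called in both. The filled symbols lie at the lower left for 16 genes, among them PLAU, TRAF1, TLR3 and TNFRSF1B, and at the upper right for 3, among them NFKBIB.

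After siβ-catenin in BRCA2-deficient cells, GSK3i lowered 6 of 34 subunits and regulators, 5 of 11 ligands and receptors and 5 of 18 other targets, and raised 1 in each list, beside 20.1% of all genes called. Of the 5 ligands and receptors, LTB and TNFSF11 had a mean below 10 with GSK3i. TRAF1 changed by -1.45 ± 0.48 (adjusted p = 0.0151), TNIP1, a partner of the TNFAIP3 protein, by -0.86 ± 0.17 (1.31e-05), TNFRSF1B by -1.48 ± 0.24 (5.74e-08), GADD45B by -1.06 ± 0.22 (4.99e-05), and IL1RAP, a subunit of the receptor for interleukin IL1, by 0.57 ± 0.19 (0.0171). In BRCA2-proficient cells no gene of the 3 lists was called there. Without both libraries at odds with their labels 3 of 34 subunits and regulators and 3 of 18 other targets were lower, and 1 gene in each list was higher, beside 6.29% of all genes. With siβ-catenin under GSK3i, 2 of 34 subunits and regulators, 1 of 9 ligands and receptors and 1 of 18 other targets were higher and 1 other target lower in BRCA2-proficient cells, and 1, 2 and 1 were higher and 1 other target lower in BRCA2-deficient cells, beside 5.1% and 5.52% of all genes called. Without the BRCA2-proficient library at odds with its label, 3, 2 and 1 were higher and 1 other target lower. CYLD, a deubiquitinase that restrains the pathway, rose by 0.78 ± 0.17 (0.000556) and 0.70 ± 0.15 (0.000292), CXCL2 by 1.02 ± 0.21 (0.000173) and 0.63 ± 0.21 (0.0414), and LIF, a cytokine, changed by -0.97 ± 0.24 (0.00261) and -0.60 ± 0.18 (0.0198). Without that library the BRCA2-proficient values were 0.66 ± 0.15 (0.000697) for CYLD, 0.77 ± 0.15 (1.65e-05) for CXCL2 and -0.73 ± 0.15 (7.42e-05) for LIF.

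With siβ-catenin alone, 2 of 34 subunits and regulators and 1 of 18 other targets were lower and 1 of 12 ligands and receptors higher in BRCA2-proficient cells, beside 2.85% of all genes called. Leaving out the library labelled siβ-catenin replicate 2 leaves 1. The medians were then 0.04 for subunits and regulators, -0.14 for ligands and receptors and -0.23 for other targets. With DOX, where 2.03% of all genes were called, 1 other target was lower, PLAU (-0.75 ± 0.16, adjusted p = 0.000629), and 1 receptor gene higher, IL1RAP (0.81 ± 0.21, 0.0142). In the interactions of GSK3i with siβ-catenin, 1 subunit or regulator, 1 ligand or receptor and 3 other targets were called higher in BRCA2-proficient cells, beside 7.63% of all genes called. In BRCA2-deficient cells CXCL2 (1.03 ± 0.28, 0.0481) was called higher, beside 0.486% of all genes called. Without both libraries at odds with their labels, 1 siβ-catenin library is left, and the BRCA2-proficient list medians were -0.03, 0.50 and 0.47. The interactions of BRCA2 depletion with GSK3i and with siβ-catenin under GSK3i called no gene of the 3 lists, beside 0.0345% and 0.0057% of all genes.

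BRCA2 depletion in untreated cells changed none of the 34 subunits and regulators, 1 of 12 ligands and receptors (TNFRSF1B, 1.66 ± 0.27, adjusted p = 1.1e-07) and 2 of 20 other targets, 1 in each direction, beside 6.92% of all genes called. CXCL10 and CSF2, named after their values were seen, averaged 1.53 and 4.12 normalised counts in BRCA2-proficient cells there, and 9.80 and 8.91 in BRCA2-deficient cells. Genes that low in 1 group pass the filter through the other, so the count of other targets is a description. Under GSK3i, where 6.81% of all genes were called, 2 of 34 subunits and regulators were higher, TRAF1 (0.61 ± 0.17, 0.00638) and BCL3 (0.54 ± 0.16, 0.0107), with 1 of 9 ligands and receptors and 2 of 17 other targets higher and 1 other target lower. With GSK3i and siβ-catenin, where 7.74% of all genes were called, 2 of 18 other targets were higher and 1 lower, GADD45B (-0.83 ± 0.28, 0.0319), which was not called without replicate 2 of the BRCA2-proficient group (-0.51 ± 0.23, 0.135). That fit called 1 subunit or regulator and 1 ligand or receptor in each direction, 2 other targets higher and 1 lower. With siβ-catenin alone, 5 of 34 subunits and regulators, 5 of 12 ligands and receptors and 6 of 18 other targets were higher and 3, 0 and 3 lower, beside 27.4% of all genes called and 13.6% called higher. LTB and LTBR averaged 2.5 and 3.6 normalised counts in the BRCA2-proficient siβ-catenin group. Genes that low there pass the filter through the BRCA2-deficient libraries and have to differ, so these counts are a description. Without the library labelled siβ-catenin replicate 2, 1 is left in that group. The list medians were then 0.10, 0.64 and 0.26, against 0.19, 0.95 and 0.11 with it.

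The genes most like each abundant member over the 22 libraries were ranked by Pearson r of log2(normalised count + 1) among 12664 genes, as a description. The libraries share treatments and replicate numbers, so they are not independent points. NFKBIA was closest to NFKBIE (r = 0.94), which encodes another IκB, followed by TAP1 and PLEKHN1 (0.91 each). NFKB2 was closest to AGPAT3 (0.91), TRAF1 and RUSC2 (0.90 each), and RELB to APBA3 (0.90), TMEM132A (0.88) and CDK16 (0.86). TNFAIP3 was closest to COL27A1 (0.90), CAPRIN2 (0.87) and SGSM2-AS1 (0.85), and BIRC3 to MYBL1 (0.85), ZNF618 (0.84) and ZNF326 (0.83). Among the members themselves, r was 0.75 for NFKBIA with NFKB2 and for ICAM1 with NFKB2, 0.02 for RELB with BIRC3, and between -0.19 and 0.32 for CXCL8 with each other member.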

How the data were processed

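The 22 poly(A) RNA-seq libraries came from H1299 cells. The authors deposited raw read counts per Ensembl gene. Per their methods, reads were aligned to GRCh37 with HISAT2, duplicates removed with Picard and unique reads counted with featureCounts. The submitters' processing notes give HISAT2 2.0.4, SAMtools 1.4, Picard 1.9.2 and featureCounts 1.5.0, and the study's reporting summary lists other versions of HISAT2, Picard and featureCounts. The conflict could not be settled here. The annotation release and strand setting are not given in the sources used here. Removing duplicates lowers the counts of abundant genes most.

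Groups were taken from the sample labels. The study describes the replicates as independent experiments, in each of which a parental culture was divided. The labels do not say that a replicate number marks an experiment. The members and lists were chosen with earlier results of these data known. Each comparison was fitted on its own libraries in DESeq2 1.42.0 (R 4.3.3; Wald test, median-of-ratios, no shrinkage). Genes were tested unless more than 3 libraries had fewer than 10 counts (interactions: at least 10 counts in at least 3 libraries). Named list genes are at most 3 called genes per list and comparison, of largest change, with a mean of at least 100. Genes chosen after their values were seen are TNF, IL1A, IL1B and those said to be so. Alternatives were edgeR 4.0.16, TMM factors, no filter, a replicate block, 1 model over all groups, adjusted p alone, and leaving out each library. The fits were tested on simulated data. Normalised counts and TPM were computed here, with gene positions from GENCODE on GRCh37.

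Numbers were taken to pair libraries where a comparison had at least 3 pairs and r of the deviations was over 0.1 in every pair. This held in the 4 BRCA2-deficient comparisons (0.173 to 0.674) and in BRCA2 depletion under GSK3i with siβ-catenin (0.105 to 0.222). The median depth was 23.2 M counts. Over all genes, replicates of a group differed by a chi-square per gene of 9.77 to 57.6.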

Additional observations from a re-analysis of the deposited data

Results flagged for a closer look

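The interaction of GSK3i with siβ-catenin in BRCA2-proficient cells was 0.93 ± 0.32 for NFKB2 (DESeq2, adjusted p = 0.0411), meaning that the difference with GSK3i was -0.82 with control siRNA and 0.12 after siβ-catenin. It was singled out because the 2 effects differed by a test of the difference itself. Without the library labelled siβ-catenin replicate 2 and replicate 2 of the group labelled GSK3i with siβ-catenin it was 0.55. That fit leaves 1 siβ-catenin library, so the effect size alone is given. In replicate 2 of the group labelled GSK3i with siβ-catenin, NFKB2 had 4583 normalised counts and PDCD4 1998, against 2799 and 105 in replicate 1 and 3070 and 109 in replicate 3. What these libraries hold was not tested.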

How the results depend on the processing

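Of 209 counts of called members under alternatives, 160 were within 1.5 times the reported count. Of 184 alternative values of the 17 called members, 113 were called, 71 were not and 0 changed sign. The replicate block kept 11 of the 17 and edgeR 10. Of 836 alternative estimates of uncalled members in the comparisons 51 changed sign. Where a cause is not given, the cause was not tested.

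With the replicate block the count of called members went from 4 to 2 for GSK3i in BRCA2-deficient cells, from 4 to 2 for BRCA2 depletion with siβ-catenin, from 1 to 2 for BRCA2 depletion with GSK3i and siβ-catenin, and from 1 to 0 for the interaction of GSK3i with siβ-catenin in BRCA2-proficient cells. The block also took away ICAM1 with GSK3i in BRCA2-proficient cells (-3.25, no adjusted p). Of the comparisons named here, GSK3i in BRCA2-deficient cells and BRCA2 depletion with GSK3i and siβ-catenin met the rule for pairing. BRCA2 depletion with siβ-catenin (r of 0.0274 and 0.0404) and GSK3i in BRCA2-proficient cells (0.0888 and 0.0678) did not. Pairing was not measured for the interactions. BRCA2 depletion in untreated cells has 2 pairs, too few for the rule, with r of 0.174 and 0.12, and NFKBIA was also called there with the block (0.72, adjusted p = 0.000694). Over all 31 pairs r ran from -0.336 to 0.674, with 21 above 0.1.

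In edgeR the count went from 2 to 1 for GSK3i after siβ-catenin in BRCA2-deficient cells, from 1 to 0 for siβ-catenin under GSK3i in BRCA2-deficient cells, for BRCA2 depletion untreated, for BRCA2 depletion with GSK3i and siβ-catenin, and for the interaction of GSK3i with siβ-catenin in BRCA2-proficient cells, and from 0 to 1 for BRCA2 depletion under GSK3i. With 1 model over all groups it went from 0 to 1 for siβ-catenin with GSK3i present in BRCA2-proficient cells and for BRCA2 depletion under GSK3i, and from 1 to 2 for that interaction, where TMM factors also gave 2. With adjusted p alone BRCA2 depletion under GSK3i had 1. Without both libraries at odds with their labels, GSK3i after siβ-catenin in BRCA2-proficient cells and that interaction rest on 1 siβ-catenin library, so no count is given.

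Leaving out 1 library at a time gave 1 to 3 for GSK3i in each background and for GSK3i after siβ-catenin in BRCA2-deficient cells, 1 to 4 for BRCA2 depletion with siβ-catenin, 0 to 3 for the interaction of GSK3i with siβ-catenin in BRCA2-proficient cells and 0 to 2 for siβ-catenin in BRCA2-proficient cells. It gave 0 to 1 for siβ-catenin in BRCA2-deficient cells without and with GSK3i and for BRCA2 depletion untreated, under GSK3i and with GSK3i and siβ-catenin. With 2 or 3 libraries a group, fewer libraries alone weaken a call. Some of these fits leave 1 library in a BRCA2-proficient group, so the counts are a description. CXCL1, CXCL8 and ICAM1 averaged 17.3 to 33.4 normalised counts a library, and the part of counting error in their calls was not tested.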
